A study of Homo sapiens with 12 samples.

Results

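Amino acid transporters carry amino acids across the plasma membrane, the lysosomal membrane and the inner mitochondrial membrane, and 35 of the 60664 genes in the count table were taken as this set by their symbols. By site, 20 of them act at the plasma membrane, 6 in lysosomes, 6 in mitochondria and 3 elsewhere or at a site that is not settled. By substrate, 10 were classed with the cationic amino acids, such as arginine, lysine and ornithine. Among these are SLC15A4, for histidine and short peptides, and the arginine-gated SLC38A9. A further 18 carry neutral amino acids and 4 carry glutamate or aspartate. SLC3A2 is a subunit with no pore of its own, SLC38A6 has no settled substrate, and SLC43A3 is a carrier of purine nucleobases and not of amino acids. RNA was measured in a pair of human B-cell acute lymphoblastic leukaemia lines, each in 24 h of control culture or 24 h of ADI-PEG20 at 1000 ng/ml, with 3 libraries in each of the 4 groups. TOM-1 carries the Philadelphia chromosome and RS4;11 a rearranged KMT2A gene, so each kind of leukaemia stood on 1 line, and the labels give both lines as lymphoblasts from blood of wild-type genotype, kept in RPMI medium with fetal bovine serum. The agent ADI-PEG20, arginine deiminase joined to polyethylene glycol, breaks extracellular arginine down to citrulline, and the control cultures received none. The study's title places it around ASS1, the enzyme through which cells remake arginine from citrulline.

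Cells without ASS1 depend on arginine from outside, which enters mainly through the cationic amino acid transporters of the SLC7 family. Another branch of SLC7, the light chains, works only when bound to the heavy chain SLC3A2 and exchanges 1 amino acid for another, so that neutral amino acids taken up by sodium-coupled carriers such as SLC38A2 and SLC1A5 serve as exchange currency. When amino acids run short, the kinase GCN2 slows translation while the factor ATF4 is made, and ATF4 with its CEBP partners binds composite elements in the promoters of several transporter genes. Lysosomal carriers release amino acids from digested protein, and mitochondrial carriers link the ornithine, glutamate and aspartate pools of that organelle with those of the cytosol.

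Total counts per library ran from 18958144 to 35956959, and values are given as CPM, counts scaled to a common library size with TMM factors, as mean ± SD over 3 libraries where libraries are not listed. TOM-1 control replicate 3 stood apart: 14963 genes had reads in it against 19857 to 21997 in the other libraries, ribosomal protein genes took 19.7% of its counts against 9.21% and 8.95% in replicates 1 and 2, and its log2 CPM correlated with theirs at 0.948 and 0.945, where the lowest value between other replicates was 0.989. In this library 8 of the transporters lay more than 1.5 times above the mean of the other TOM-1 controls, and 8 lay below it by the same factor. The part that its RNA composition played in any result was not tested. Counts of calls and the log2 fold changes of treatment are given with and without it. For some differences between the lines in control, only values from 12 libraries are given, in part with group means without it. All 10 B-lineage markers were detected in every group, with summed levels of 7270 to 8480 CPM in TOM-1 control, 7340 to 7580 CPM in TOM-1 with ADI-PEG20, 2210 to 2340 CPM in RS4;11 control and 2340 to 2550 CPM in RS4;11 with ADI-PEG20. Summed T-lineage markers (6 genes) stayed at or under 0.837 CPM, and myeloid markers (6 genes) between 10.2 and 26.7 CPM. CD3G and TRBC2 of the T-lineage list were at 0 counts in every group. CPM is a share of all RNA counted, so fewer cells of a kind and less RNA per cell cannot be told apart. Nothing in the labels says that the 3 libraries of a group came from separate cultures, and the p-values below measure the spread between these libraries only.

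In TOM-1, ADI-PEG20 was accompanied by higher RNA for the arginine carrier SLC7A1, the heavy chain SLC3A2, 3 carriers of large neutral amino acids (SLC7A5, SLC43A1 and SLC43A2), the sodium-coupled carrier SLC38A2, the glycine carrier SLC6A9 and the lysosomal carrier SLC36A1. The aromatic carrier SLC16A10, the glutamine carrier SLC38A5, the taurine carrier SLC6A6, the intracellular SLC38A10 and the mitochondrial carriers SLC25A22, SLC25A15 and SLC25A29 fell. With edgeR's quasi-likelihood test on 12 libraries and Benjamini-Hochberg adjustment over 17349 genes, 15 of the 35 transporters passed an adjusted p of 0.05, 8 higher and 7 lower. That is 42.9% of them, where 31.9% of all tested genes passed, 15.9% in each direction. Without TOM-1 control replicate 3, 20 of 35 passed (57.1%), 12 higher and 8 lower, where 41.6% of 18321 tested genes did, 21.8% higher and 19.8% lower. The share of transporters called was above the share of all genes in each fit, and both shares were large. The transporters were chosen with earlier results of these data known, and their median level was higher (32.7 against 14.1 CPM over all tested genes). The shares are therefore set side by side as values only. Their median log2 fold change was 0.26 with 12 libraries, against 0.05 over all tested genes, and 0.27 against 0.00 without that library. Treated and control libraries did not overlap for 23 of the 35 (65.7%, against 46.2% of all tested genes), 17 of them higher under ADI-PEG20.

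The 35 genes together took 0.444%, 0.443% and 0.333% of all counts in the TOM-1 control libraries and 0.713%, 0.710% and 0.705% in the treated ones, so that each treated library lay above each control library. In RS4;11 the share was 0.321%, 0.314% and 0.308% in control and 0.327%, 0.326% and 0.319% with ADI-PEG20, and those groups overlapped. SLC7A5, SLC3A2, SLC38A1 and SLC38A2, which had the highest CPM of the set in treated TOM-1, weigh most in this sum.

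**Figure D1:**
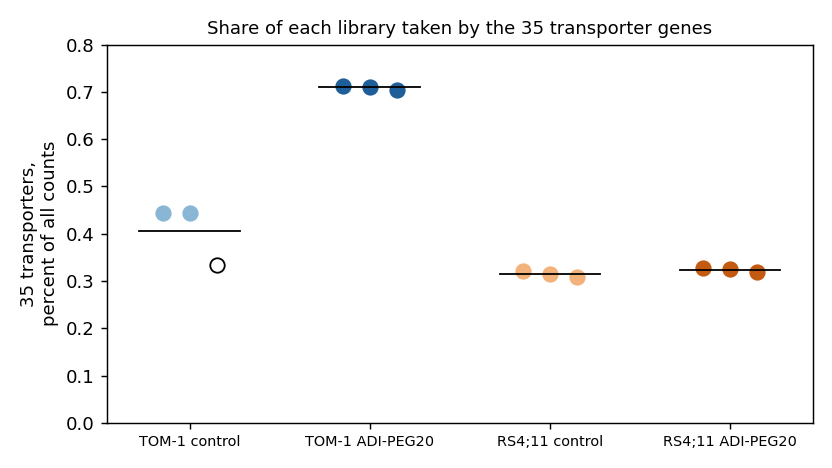
Percent of all counts taken by the 35 transporter genes in each of the 12 libraries, by group (points, libraries in order of replicate number; bars, mean of 3; open point, TOM-1 control replicate 3). The treated TOM-1 libraries sit between 0.705% and 0.713%, above all TOM-1 controls, while the RS4;11 libraries sit between 0.308% and 0.327%.

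In RS4;11 no transporter passed the test of the treatment. The count was 0 of 35 with edgeR on 12 libraries and also when TOM-1 control replicate 3 was left out, and DESeq2 and limma voom gave 0 as well. SLC7A2, at 0 counts in every RS4;11 library, was in the tested set through TOM-1 and could not pass here. At an unadjusted p under 0.05 there were 0 with 12 libraries and 8 without that library. Over all genes tested, 0% passed with 12 libraries and 0.317% without TOM-1 control replicate 3, 0.202% higher and 0.115% lower. Treated and control libraries of RS4;11 did not overlap for 4 members (11.4%, against 16.8% of all genes): SLC7A1, SLC7A3 and SLC25A29 were higher, and SLC1A3, at under 1 CPM, was lower.

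The difference between the lines was tested directly, as the effect in TOM-1 minus the effect in RS4;11. It passed for 9 of 35 transporters (25.7%), where 11.9% of all genes passed, 5.89% higher and 6.05% lower. The difference was positive for 6, which rose in TOM-1, and negative for 3, which fell there. SLC3A2, SLC7A5, SLC43A1, SLC43A2, SLC38A2 and SLC6A9 made up the first group, and SLC16A10, SLC38A5 and SLC25A22 the second. With DESeq2 size factors the split was 5 and 5, and with upper-quartile scaling 4 and 5. Without TOM-1 control replicate 3, 18 passed (51.4%, against 30.4% of all genes), 10 higher and 8 lower, against 15.7% and 14.7% of all genes. SLC7A5, SLC43A2, SLC16A10, SLC38A5 and SLC6A9 passed whichever single library was left out. SLC3A2 and SLC38A2 lost the call without any 1 of the treated TOM-1 libraries or of the RS4;11 libraries (adjusted p up to 0.0803 and 0.107). SLC43A1 lost it without any library other than TOM-1 control replicate 3 (up to 0.115), and SLC25A22 without any treated TOM-1 or RS4;11 library other than RS4;11 ADI-PEG20 replicate 2 (up to 0.0977).

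**Figure D2:**
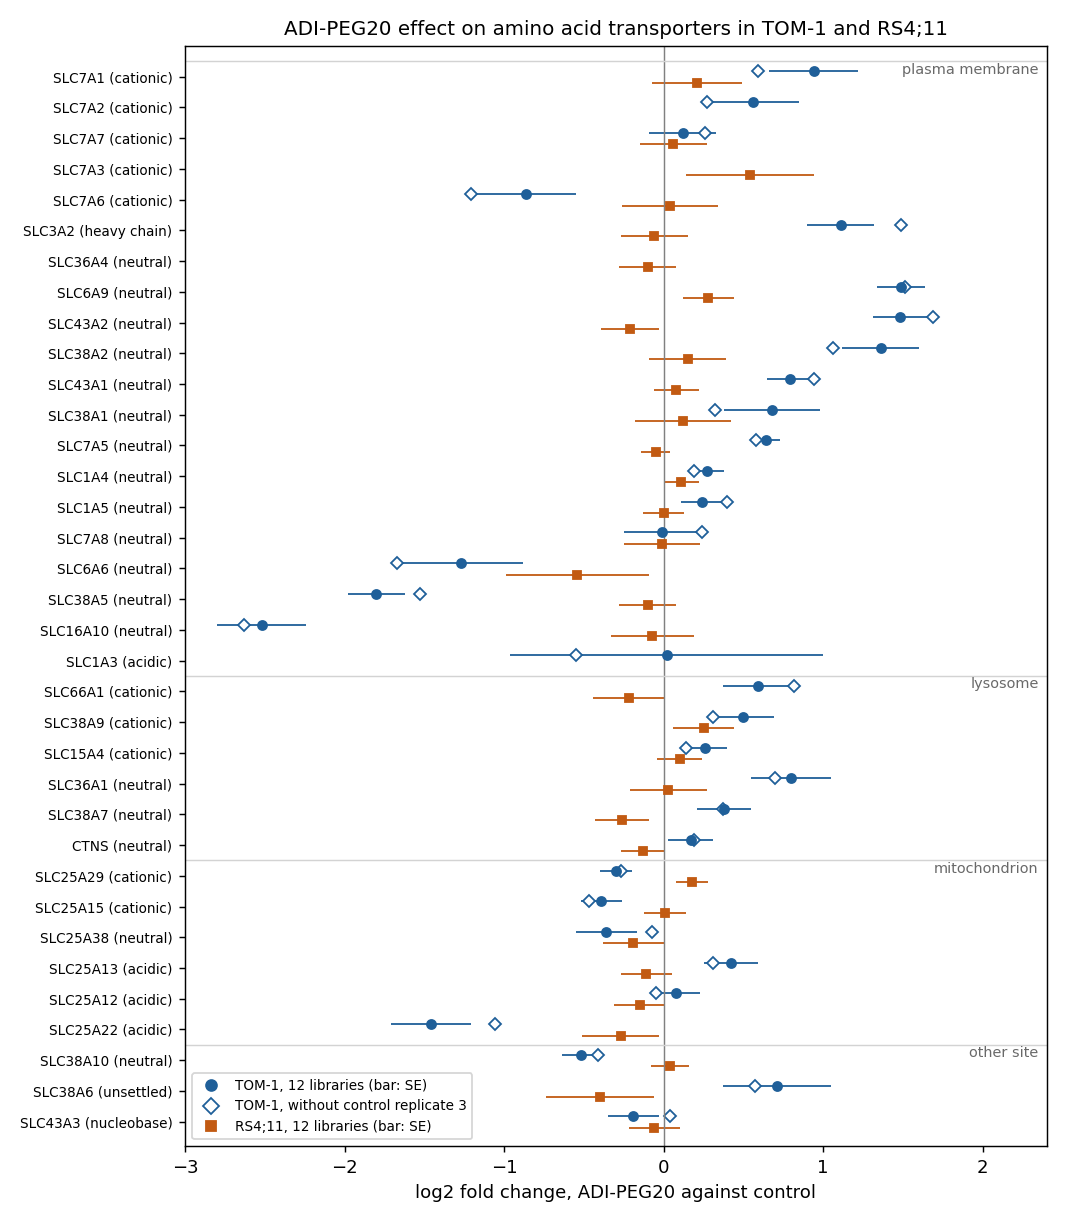
Log2 fold change of ADI-PEG20 against control for the transporters, ordered by site and substrate (circles, TOM-1 with 12 libraries; open diamonds, TOM-1 without control replicate 3; squares, RS4;11 with 12 libraries; bars, SE). SLC36A4 and SLC7A3 are not drawn for TOM-1, nor SLC7A2 and SLC1A3 for RS4;11, since their counts there were at or near 0; TOM-1 circles reach from -2.52 (SLC16A10) to 1.49 (SLC6A9), and RS4;11 values cluster around 0.

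Promoter windows were searched since several transporter genes are textbook targets of ATF4, and sequence is shown only for members that held a match. RefSeq windows on GRCh38.p14, from 250 bases before to 50 after each start, were found for 31 of the 35 genes, with none for SLC7A2, SLC7A3, SLC6A6 and SLC43A3. The letters TGATGNAA, a CEBP-ATF composite element (searched on both strands), were present in the windows of 6 members, SLC7A1, SLC3A2, SLC38A1, SLC1A4, SLC1A5 and SLC1A3, where 3.62% of 35116 windows and 4.46% of 27305 genes held them. Of the 12 members higher in TOM-1 without control replicate 3, all with a window, 5 held the letters. Of the 8 members lower there, 7 had a window and 0 held them, and of the 15 others, 12 had a window and 1 held them. With 12 libraries SLC38A1, SLC1A4 and SLC1A5 did not pass (edgeR adjusted p = 0.107, 0.0747 and 0.174). Among the 8 members higher in that fit, only SLC7A1 and SLC3A2 held the letters, so the split by call depends on the fit. SLC7A5, SLC43A1, SLC43A2, SLC38A2, SLC6A9 and SLC36A1 had a window without them. In the list of 38 genes of the amino acid response described further on, 10 held them. The 5 stretches of the members that were higher without control replicate 3 follow, 5′ to 3′ on the strand of the gene, with the matching letters in capitals. Positions are counted from the transcription start of the window shown. SLC3A2, SLC1A5 and SLC1A3 had 3 windows each and SLC38A1 and SLC1A4 had 2, with the match in 1 of them. Which start these cells use was not tested.
SLC7A1, chr13:29595659-29595731, minus strand, match at 8 bases past the start: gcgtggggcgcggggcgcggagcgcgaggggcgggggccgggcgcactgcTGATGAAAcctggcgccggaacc
SLC3A2, chr11:62881725-62881748, plus strand, match on the opposite strand at 38 bases past the start: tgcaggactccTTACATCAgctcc
SLC38A1, chr12:46266487-46266570, minus strand, match at -4: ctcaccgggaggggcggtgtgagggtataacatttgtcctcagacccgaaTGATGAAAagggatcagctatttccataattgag
SLC1A4, chr2:64989342-64989428, plus strand, match on the opposite strand at -7: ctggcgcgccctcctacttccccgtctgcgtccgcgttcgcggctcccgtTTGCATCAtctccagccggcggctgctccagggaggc
SLC1A5, chr19:46784854-46784961, minus strand, match at -97: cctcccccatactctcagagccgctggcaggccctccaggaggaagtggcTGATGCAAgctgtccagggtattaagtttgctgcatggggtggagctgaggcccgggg

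The letters CACGTG, the E-box bound by MYC and by the lysosomal regulators TFEB and TFE3, do not share their letters with the first motif and read the same on both strands. They were present in the windows of 11 members, against 7.26% of windows and 8.77% of genes. By call without control replicate 3 they were spread over all classes, with 4 of the 12 members that were higher, 2 of the 7 lower ones with a window and 5 of the 12 others. The window of SLC7A5, the member with the highest level, and that of SLC38A5, which fell, are shown for comparison, with the E-box in capitals.
SLC7A5, chr16:87869582-87869687, minus strand, match at -130: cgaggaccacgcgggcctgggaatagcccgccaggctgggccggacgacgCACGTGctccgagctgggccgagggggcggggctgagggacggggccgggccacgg
SLC38A5, chrX:48470411-48470510, minus strand, match at -206: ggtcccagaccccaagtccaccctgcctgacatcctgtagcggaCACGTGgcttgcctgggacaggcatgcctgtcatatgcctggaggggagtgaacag

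SLC7A1 encodes cationic amino acid transporter 1, the main route of arginine, lysine and ornithine into most cells, and lies on the minus strand at chr13:29509410-29595688 (GRCh38). In TOM-1 control it read 319.7, 287 and 110.5 CPM in replicates 1, 2 and 3, and with ADI-PEG20 465, 457 and 456 CPM. Every treated library lay above every control, and replicate 3 was the low control. The log2 fold change was 0.94 (SE 0.28, adjusted p = 0.0246) with 12 libraries and 0.59 (SE 0.07, adjusted p = 4.63e-07) without replicate 3, so the size of the rise, though not its direction, rested on that library. Leaving out any 1 of the treated libraries ended the call in the wider fit (adjusted p up to 0.0730), and in a fit of the TOM-1 libraries alone the adjusted p was 0.124. In RS4;11 SLC7A1 read 204, 215 and 188 CPM in control and 251, 234 and 219 CPM with ADI-PEG20. These groups did not overlap either, with a log2 difference of 0.21, but the adjusted p was 1.00 with 12 libraries and 0.143 without TOM-1 control replicate 3. The difference between the lines was 0.73 (SE 0.40, adjusted p = 0.267) with 12 libraries and 0.38 (SE 0.09, adjusted p = 0.00327) without that library.

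SLC7A2 and SLC7A3, the other cationic transporters of the same branch, were each found mainly in 1 line. SLC7A2 read 29.6, 31.4 and 14.1 CPM in TOM-1 control and 40.5, 36.2 and 34.0 CPM with ADI-PEG20, while all 6 RS4;11 libraries had 0 counts. Replicate 3 was again the low control, the groups did not overlap, and the treatment difference passed in neither fit. Against a floor of 3 counts per library, which is 0.132 CPM in RS4;11 control and 0.140 CPM in treated RS4;11, SLC7A2 was at least 190-fold higher in TOM-1 in control and at least 264-fold higher under ADI-PEG20. SLC7A3 showed the reverse, with 0.0853, 0.0390 and 0.497 CPM in TOM-1 control, 0, 0.229 and 0.157 CPM in treated TOM-1, 16.7, 14.8 and 13.5 CPM in RS4;11 control and 22.4, 23.0 and 20.2 CPM in treated RS4;11. No TOM-1 library had more than 9 of its counts. The log2 difference between the lines was -6.40 (SE 0.59, edgeR adjusted p = 4.16e-06) in control, or -7.73 without TOM-1 control replicate 3. Under ADI-PEG20 it was -7.31 (SE 0.61, adjusted p = 1.40e-06). SLC7A3 passed the filter on low counts through RS4;11 only. No support is drawn from these p-values, and the sizes rest on few TOM-1 counts. Its RS4;11 libraries did not overlap between treatments, but with a log2 fold change of 0.54 the adjusted p was 1.00 with 12 libraries and 0.208 without TOM-1 control replicate 3.

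SLC7A6 and SLC7A7, the y+LAT2 and y+LAT1 light chains, export cationic amino acids in exchange for neutral ones and sodium. SLC7A6 read 35.6, 39.4 and 13.2 CPM in TOM-1 control and 13.3, 15.3 and 20.0 CPM with ADI-PEG20. Control replicates 1 and 2 lay above all treated libraries and replicate 3 lay just below them. The change was -0.86 (SE 0.31, adjusted p = 0.0511) with 12 libraries and -1.21 (SE 0.13, adjusted p = 9.43e-08) without replicate 3. In the annotation 55.6% of the exonic bases of SLC7A6 also belong to a gene on the opposite strand, and since the use of strand in counting is not stated, its reads cannot be told from that gene's. RS4;11 held it at 41.8 ± 1.41 CPM and 43.0 ± 2.74 CPM in control and ADI-PEG20. SLC7A7 stayed between 5.30 and 9.55 CPM in TOM-1 and between 13.3 and 15.8 CPM in RS4;11 and was not called under treatment in either line.

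SLC3A2 (4F2hc or CD98), the heavy chain that brings SLC7A5, SLC7A6, SLC7A7, SLC7A8 and SLC7A11 to the cell surface, lies at chr11:62856102-62888875. It read 364, 369 and 701 CPM in TOM-1 control and 1061, 1050 and 976 CPM with ADI-PEG20. All treated libraries were higher than all controls, and replicate 3 was here the high control. The log2 fold change was 1.11 (SE 0.21, adjusted p = 0.00204) with 12 libraries and 1.49 (SE 0.06, adjusted p = 2.66e-14) without replicate 3. With the TOM-1 libraries fitted alone the adjusted p was 0.0504. RS4;11 held SLC3A2 at 257, 241 and 243 CPM in control and 241, 243 and 229.5 CPM with ADI-PEG20, overlapping ranges, and the effects differed by 1.16 (SE 0.29, adjusted p = 0.0253), or 1.54 without TOM-1 control replicate 3. With upper-quartile scaling that difference did not pass (1.05, adjusted p = 0.0576).

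**Figure D3:**
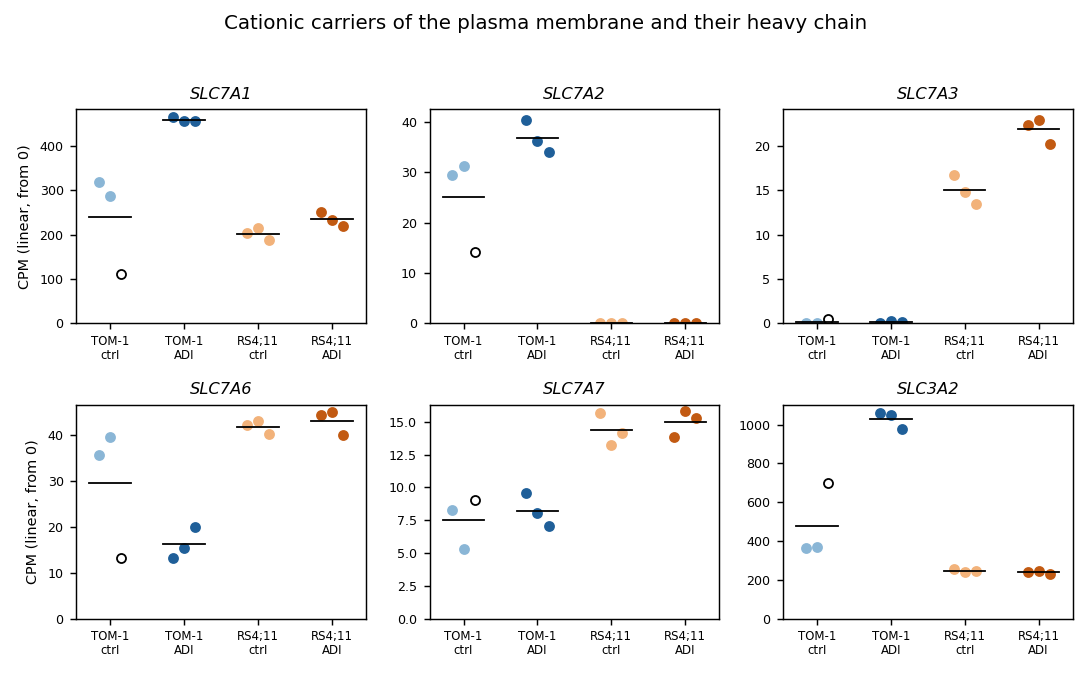
CPM in each library (linear axes from 0) of the 5 cationic carriers of the plasma membrane and of the heavy chain SLC3A2, by group (points, libraries in order of replicate number; bars, mean of 3; open point, TOM-1 control replicate 3). SLC7A2 is at 0 in RS4;11 and SLC7A3 under 1 CPM in TOM-1, and control replicate 3 is the low TOM-1 control for SLC7A1, SLC7A2 and SLC7A6 and the high one for SLC3A2.

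Among the carriers of large neutral amino acids, SLC7A5 (LAT1), the exchanger of leucine, other branched-chain and aromatic amino acids, read 992, 969 and 870.5 CPM in TOM-1 control and 1495, 1481 and 1442 CPM under ADI-PEG20. The ranges were far apart and replicate 3 lay close to the other controls, with a rise of 0.64 (SE 0.09, adjusted p = 4.23e-04) on the log2 scale (0.58 without replicate 3). Its RS4;11 libraries ran from 568 to 628 CPM with no separation by treatment, and the effects differed by 0.69 (SE 0.13, adjusted p = 0.00712), or 0.63 without TOM-1 control replicate 3. SLC43A2 (LAT4), a facilitative carrier that needs no exchange partner, rose from 29.9, 28.8 and 43.6 CPM to 93.7, 97.8 and 93.2 CPM. The log2 fold change was 1.48 (SE 0.17, adjusted p = 9.97e-05), or 1.69 without replicate 3, and it differed from RS4;11, where all libraries lay between 6.25 and 8.61 CPM, by 1.69 (SE 0.25, adjusted p = 0.00164), or 1.90 without TOM-1 control replicate 3. SLC43A1 (LAT3), its close relative, rose from 50.8, 57.8 and 72.0 CPM to 112, 106 and 95.1 CPM, by 0.79 (SE 0.14, adjusted p = 0.00129), or 0.94 without replicate 3. In RS4;11 SLC43A1 ran from 38.3 to 45.5 CPM, and the difference of effects was 0.71 (SE 0.20, adjusted p = 0.0368) with 12 libraries and 0.86 (SE 0.13, adjusted p = 1.69e-05) without TOM-1 control replicate 3. With DESeq2 size factors, upper-quartile scaling or no filter that difference did not pass (adjusted p 0.0606, 0.0935 and 0.0873).

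SLC16A10 (TAT1), a facilitative carrier of aromatic amino acids, went the other way. It read 9.41, 10.7 and 7.67 CPM in TOM-1 control and 1.80, 1.91 and 1.14 CPM under ADI-PEG20, groups far apart at low levels. The log2 fold change was -2.52 (SE 0.28, adjusted p = 6.54e-05), the lowest among the called transporters, and -2.63 (SE 0.28, adjusted p = 9.82e-08) without replicate 3. RS4;11 stayed between 3.84 and 5.41 CPM, so that SLC16A10 was higher in TOM-1 than in RS4;11 in control (log2 difference 0.99, SE 0.26, adjusted p = 0.0109) and lower under ADI-PEG20 (-1.46, SE 0.27, adjusted p = 9.03e-04). The control value lost its call without RS4;11 control replicate 2 (adjusted p = 0.0634). Without TOM-1 control replicate 3 the control value was 1.10 and the treated one -1.46. The effects differed between the lines by -2.45 (SE 0.38, adjusted p = 0.00207), or -2.57 without that library. SLC7A8 (LAT2) stayed between 4.02 and 7.28 CPM over all 12 libraries and was called in no comparison.

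Of the carriers of small neutral amino acids and glutamine, SLC38A2 (SNAT2), the sodium-coupled carrier of alanine, serine and glutamine, read 523, 524 and 232 CPM in TOM-1 control and 1083, 1110 and 1081 CPM with ADI-PEG20. Treated libraries were all higher, and replicate 3 was the low control. The log2 fold change was 1.36 (SE 0.24, adjusted p = 0.00141) and, without replicate 3, 1.06 (SE 0.07, adjusted p = 8.58e-11). In RS4;11 it ran from 245 to 317 CPM in overlapping groups, and the effects differed by 1.20 (SE 0.34, adjusted p = 0.0382), or 0.91 without TOM-1 control replicate 3. SLC38A5 (SNAT5), which carries glutamine, glycine and serine, fell from 189, 176 and 296 CPM to 67.8, 62.5 and 59.1 CPM in TOM-1. Replicate 3 was the high control, and the log2 fold change was -1.80 (SE 0.18, adjusted p = 3.86e-05) with it and -1.53 (SE 0.08, adjusted p = 3.02e-12) without it. RS4;11 held SLC38A5 between 83.0 and 103 CPM, and the effects differed by -1.70 (SE 0.25, adjusted p = 0.00175), or -1.43 without TOM-1 control replicate 3. SLC38A2 and SLC38A5 belong to the same family and moved in opposite directions in the same libraries.

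SLC38A1 (SNAT1), SLC1A5 (ASCT2) and SLC1A4 (ASCT1), carriers of glutamine, alanine, serine and threonine, passed only without TOM-1 control replicate 3. SLC38A1 averaged 568 ± 279 CPM in control and 911 ± 8.82 CPM under ADI-PEG20, and replicate 3 stood at 246 CPM where replicates 1 and 2 stood at 738 and 719 CPM. Its log2 fold change was 0.68 (SE 0.30, adjusted p = 0.107) with 12 libraries and 0.32 (SE 0.08, adjusted p = 0.00175) without replicate 3. SLC1A5 went from 334 ± 60.0 CPM to 394 ± 11.8 CPM, with overlapping groups since replicate 3 was as high as the treated libraries. Its values were 0.24 (SE 0.13, adjusted p = 0.174) and, without replicate 3, 0.40 (SE 0.06, adjusted p = 2.25e-05), and 23.8% of its exonic bases lie under a gene on the other strand. For SLC1A4, at 150.2 ± 16.1 and 182 ± 6.96 CPM, they were 0.27 (SE 0.11, adjusted p = 0.0747) and 0.19 (SE 0.07, adjusted p = 0.0265).

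SLC6A9 (GLYT1), the glycine carrier, read 28.5, 25.9 and 28.6 CPM in TOM-1 control and 74.5, 77.6 and 80.3 CPM under ADI-PEG20. Here replicate 3 matched the other controls, and the TOM-1 groups did not overlap. The log2 fold change was 1.49 (SE 0.15, adjusted p = 3.30e-05), the highest among the called transporters with 12 libraries, and 1.51 without replicate 3. RS4;11 held it at 2.83 to 4.78 CPM, and the effects differed by 1.21 (SE 0.22, adjusted p = 0.00495), or 1.22 without TOM-1 control replicate 3. SLC6A6, the taurine and beta-alanine carrier, read 55.4, 62.6 and 16.6 CPM in TOM-1 control and 19.4, 17.7 and 18.7 CPM with ADI-PEG20. Replicates 1 and 2 lay above the treated libraries and replicate 3 below them, so the groups overlapped. The change was -1.27 (SE 0.39, adjusted p = 0.0264) with 12 libraries and -1.67 (SE 0.16, adjusted p = 3.09e-08) without replicate 3. The first value lost its call without any 1 of the other TOM-1 libraries (adjusted p up to 0.0814) and with the TOM-1 libraries fitted alone (0.0868).

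**Figure D4:**
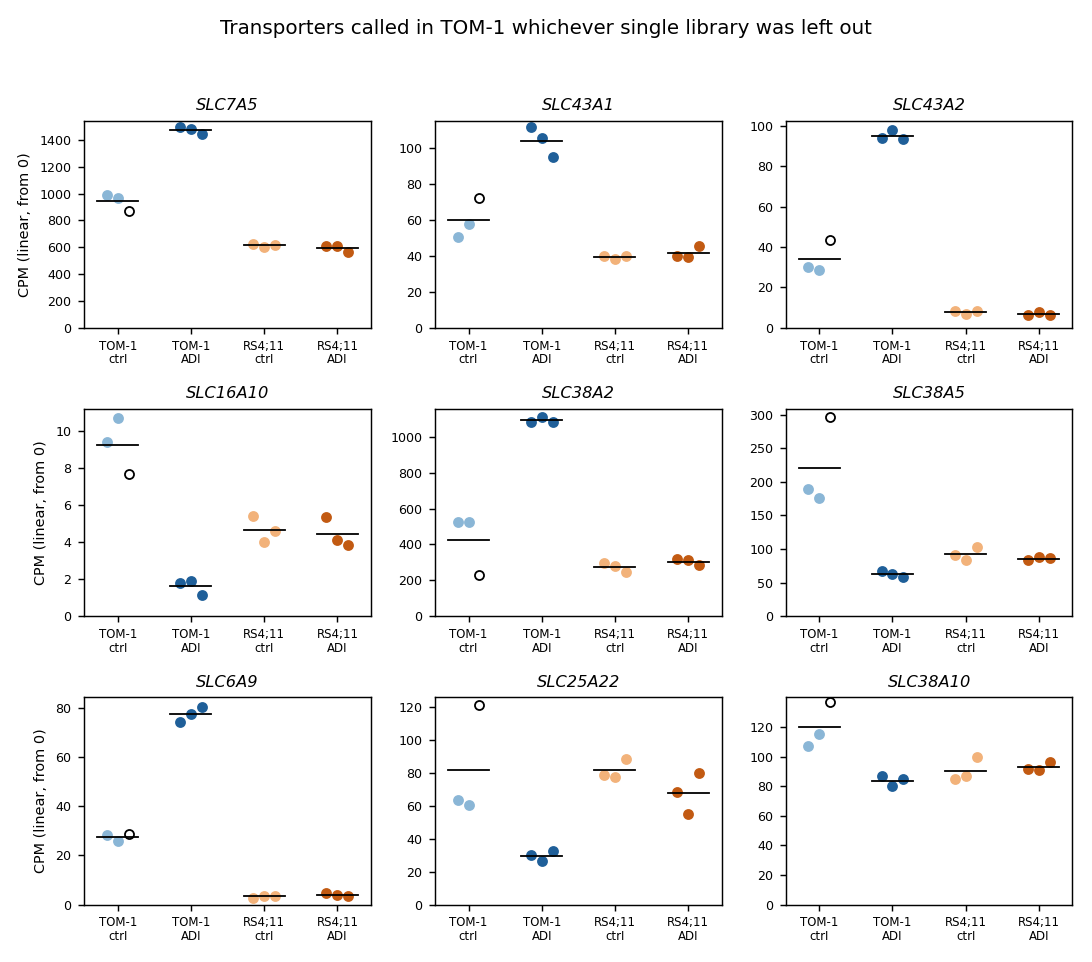
CPM in each library (linear axes from 0) of 9 transporters that passed in TOM-1 whichever single library was left out, by group (points, libraries in order of replicate number; bars, mean of 3; open point, TOM-1 control replicate 3); SLC3A2, which also did, is plotted with the cationic carriers. SLC7A5, SLC43A1, SLC43A2, SLC38A2 and SLC6A9 are higher in all treated TOM-1 libraries, SLC16A10, SLC38A5, SLC25A22 and SLC38A10 are lower, and the RS4;11 groups overlap.

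SLC36A4 (PAT4), a carrier of proline and tryptophan, marked RS4;11. No TOM-1 control library held a count of it, and it had 1 count over the 3 treated TOM-1 libraries and 27.2 to 31.6 CPM in every RS4;11 library. Against a floor of 0.123 CPM its control level in TOM-1 was at least 246-fold lower than in RS4;11, and under ADI-PEG20 its level in RS4;11 was 2110 times that in TOM-1 (1838 counts in RS4;11 and 1 in TOM-1; 95% counting interval of the ratio 379 to 83500). SLC1A3 (EAAT1), the only glutamate and aspartate carrier of the plasma membrane in the set, read 6.05, 6.63 and 0 CPM in TOM-1 control and 4.15, 4.12 and 4.72 CPM with ADI-PEG20. Only control replicate 3 was at 0, and RS4;11 stayed under 1 CPM. In treated cells SLC1A3 was higher in TOM-1 by 4.30 (SE 1.23, adjusted p = 0.0124). It was in the tested set through TOM-1, with at most 17 counts in an RS4;11 library, so no support is drawn from that p-value.

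Of the 6 lysosomal carriers, 1 was called in TOM-1 with 12 libraries and 2 without control replicate 3, all higher, where 15.9% and 21.8% of all tested genes were higher; the count of 1 is at that share. SLC36A1 (PAT1), which carries small neutral amino acids out of lysosomes with protons, read 5.46, 4.45 and 3.97 CPM in control and 7.66, 7.48 and 9.09 CPM under ADI-PEG20. The groups did not overlap, the log2 fold change was 0.80 (SE 0.25, adjusted p = 0.0267) with 12 libraries and 0.70 (SE 0.25, adjusted p = 0.0263) without replicate 3, and the call was lost without control replicate 2 or any treated TOM-1 library (adjusted p up to 0.107). It was also lost with the TOM-1 libraries fitted alone (adjusted p = 0.0638) and with no filter on low counts (0.0561). SLC66A1 (PQLC2), the exporter of arginine, lysine and histidine, averaged 11.6 ± 3.55 CPM in control and 17.4 ± 0.940 CPM with ADI-PEG20, a change of 0.59 (SE 0.22, adjusted p = 0.0609) with 12 libraries and 0.82 (SE 0.18, adjusted p = 8.76e-04) without replicate 3. In RS4;11 it averaged 11.8 ± 1.02 and 10.2 ± 1.88 CPM, and the difference of effects passed only without that library (1.04, SE 0.25, adjusted p = 0.00236). The same held for SLC38A7 (SNAT7), the exporter of glutamine and asparagine, whose effects differed by 0.63 (SE 0.23, adjusted p = 0.0414) without it. SLC38A9, the arginine-gated carrier through which lysosomal arginine signals to mTORC1, averaged 18.8 ± 4.55 and 26.6 ± 1.11 CPM in TOM-1 and 19.2 ± 2.03 and 22.9 ± 3.77 CPM in RS4;11, in control and under ADI-PEG20. It was called in no comparison. SLC15A4, for histidine and short peptides, and CTNS, the cystine exporter, were not called for the treatment effect in either line. They ran from 24.7 to 51.2 CPM and from 13.2 to 21.2 CPM over all libraries. Between the treated lines 4 of the 6 lysosomal carriers were called in both fits, all higher in TOM-1, against 23.1% and 31.4% of all genes. CTNS, 1 of them, lost that call with no filter on low counts (log2 difference 0.50, edgeR adjusted p = 0.0745).

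Of the 6 mitochondrial carriers, 3 were called in TOM-1 in both fits, all lower, where 15.9% and 19.8% of all genes were lower. SLC25A22 (GC1), which brings glutamate into mitochondria, read 63.7, 60.5 and 121 CPM in control and 30.3, 26.4 and 32.6 CPM with ADI-PEG20. All treated libraries were lower, replicate 3 was the high control, and the log2 fold change was -1.46 (SE 0.25, adjusted p = 0.001) with it and -1.06 (SE 0.12, adjusted p = 1.91e-07) without it. In RS4;11 it read 78.8, 77.7 and 88.3 CPM and 68.4, 55.1 and 80.0 CPM, with overlap, and the effects differed by -1.19 (SE 0.34, adjusted p = 0.0423), or -0.80 without TOM-1 control replicate 3. A gene on the other strand covers 10.8% of its exonic bases. SLC25A15 (ORC1), which exchanges ornithine for citrulline, fell from 34.3, 31.4 and 27.8 CPM to 24.3, 24.7 and 22.5 CPM. SLC25A29, which carries arginine, lysine and other basic amino acids, fell from 123, 131 and 136 CPM to 104, 105 and 109 CPM. Neither overlapped between groups, and the changes were small, at -0.39 (SE 0.13, adjusted p = 0.0388) for SLC25A15 and -0.30 (SE 0.10, adjusted p = 0.0445) for SLC25A29 (-0.47 and -0.27 without replicate 3). Single libraries decided these calls. Of the 12 fits with a library left out, 6 ended each of them, for SLC25A15 without TOM-1 control replicate 1 or 2, any treated TOM-1 library or RS4;11 ADI-PEG20 replicate 1 (adjusted p up to 0.105), and for SLC25A29 without TOM-1 control replicate 2, any treated TOM-1 library, RS4;11 control replicate 1 or RS4;11 ADI-PEG20 replicate 1 (up to 0.122). With the TOM-1 libraries fitted alone the adjusted p was 0.0967 for SLC25A15 and 0.136 for SLC25A29, with no filter on low counts 0.174 and 0.261, and with the replicate block 0.0528 for SLC25A15. RS4;11 held SLC25A15 at 33.2 to 41.4 CPM, and its SLC25A29 libraries were higher under ADI-PEG20 (61.9 to 72.0 CPM) than in control (57.9 to 58.5 CPM) without a call. Without TOM-1 control replicate 3 the effects on SLC25A29 differed by -0.44 (SE 0.10, adjusted p = 0.00193) and those on SLC25A15 by -0.47 (SE 0.15, adjusted p = 0.0181).

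The aspartate-glutamate exchangers SLC25A12 and SLC25A13 (citrin) and the glycine carrier SLC25A38, which serves haem synthesis, were not called under treatment in either line. SLC25A13 was lower in TOM-1, with 12.9, 18.1 and 11.7 CPM in TOM-1 control and 72.8, 68.9 and 57.0 CPM in RS4;11 control. The log2 difference between the lines was -2.22 (SE 0.17, adjusted p = 1.02e-06) in control and -1.69 (SE 0.17, adjusted p = 6.27e-06) under ADI-PEG20, or -2.11 and -1.69 without TOM-1 control replicate 3. SLC25A12 was higher in treated TOM-1 than in treated RS4;11 by 0.48 (SE 0.16, adjusted p = 0.0227), and by the same 0.48 without TOM-1 control replicate 3. The call with 12 libraries was lost with no filter on low counts (adjusted p = 0.0659) and in 9 of the 12 fits with a library left out (adjusted p up to 0.164): those without TOM-1 control replicate 2, RS4;11 control replicate 1 or 2, or any treated library. SLC25A12 averaged 26.1 to 36.5 CPM over the 4 groups and SLC25A38 50.9 to 65.6 CPM.

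Outside these sites, SLC38A10, an intracellular member of the SLC38 family, fell in TOM-1 from 107, 115 and 137 CPM to 86.6, 80.0 and 84.6 CPM, with no overlap; on the log2 scale the change was -0.52 (SE 0.12, adjusted p = 0.00688), or -0.41 without replicate 3. With the TOM-1 libraries fitted alone the adjusted p was 0.0603. The RS4;11 libraries ran from 85.0 to 99.4 CPM, and without TOM-1 control replicate 3 the effects differed by -0.45 (SE 0.10, adjusted p = 0.00190). SLC38A6 stayed between 1.38 and 3.74 CPM in all libraries. The nucleobase carrier SLC43A3, with 29.9% of its exonic bases shared with a gene on the same strand, stayed between 132 and 157 CPM in 11 libraries and stood at 226 CPM in TOM-1 control replicate 3, and it was called in no comparison.

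The counts by substrate and site stand beside 31.9% of all tested genes called in TOM-1 with 12 libraries and 41.6% without control replicate 3. Of the 18 neutral carriers, 10 passed with 12 libraries (6 higher, 4 lower) and 13 without control replicate 3 (9 higher, 4 lower). Of the 10 cationic carriers 3 passed (1 higher, 2 lower), and 5 without that library (2 higher, 3 lower). Of the 4 acidic carriers 1 passed, lower, in each fit. With 12 libraries the cationic and acidic counts were close to the share of all genes. Without control replicate 3 the cationic count was above that share and the acidic count under it. Nothing is read from these counts. At the plasma membrane 10 of 20 passed (7 higher, 3 lower), or 14 (10 higher, 4 lower) without control replicate 3. With 12 libraries the median log2 fold change was 0.42 at the plasma membrane, 0.44 in lysosomes and -0.33 in mitochondria, against 0.05 over all genes. Without control replicate 3 these medians were 0.36, 0.34 and -0.17, against 0 over all genes. These groups are small and were not tested against each other.

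Compared per kilobase of exon, the scale on which levels of different genes can be set side by side, SLC7A5 was the highest of the 35 in every group, at 199 CPM per kb in TOM-1 control, 310.4 in treated TOM-1, 129.7 in RS4;11 control and 126 in treated RS4;11. In treated TOM-1 it was followed by SLC3A2 (199), SLC38A2 (165), SLC1A5 (118), SLC38A1 (91.0) and SLC7A1 (59.7). In RS4;11 control the order after SLC7A5 was SLC1A5 (108), SLC3A2 (47.8), SLC38A2 (41.6), SLC38A1 (36.8), SLC43A3 (31.7) and SLC7A1 (26.3). SLC7A1 was the highest cationic carrier in every group, well above SLC7A2 in TOM-1 (3.17 and 4.67 in control and treatment) and SLC7A3 in RS4;11 (6.63 and 9.65). Over the 35 genes the median of the mean CPM was 32.7, against 14.1 over all tested genes.

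**Figure D5:**
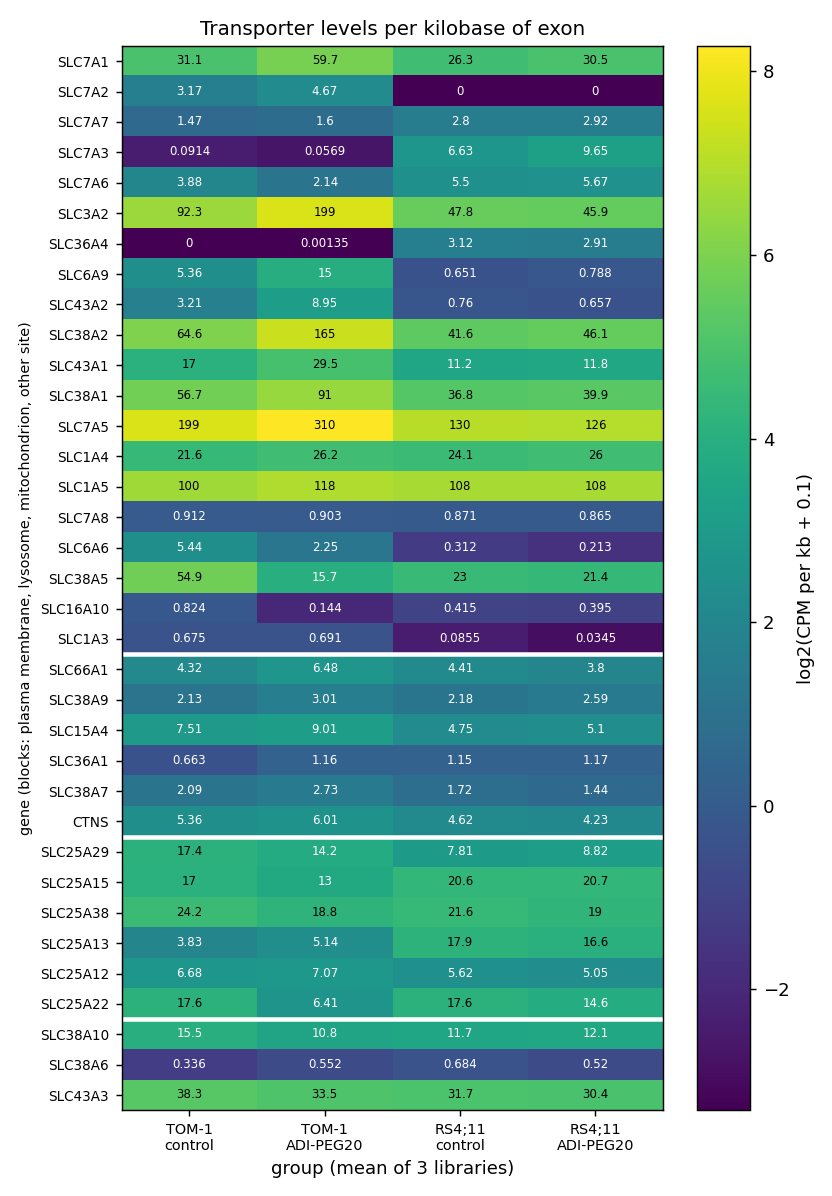
Mean level per kilobase of exon of the 35 transporters in the 4 groups (printed values, CPM per kb, mean of 3 libraries; colour, log2 of the value plus a pseudocount of 0.1), in blocks by site. SLC7A5, SLC3A2, SLC38A2, SLC1A5 and SLC38A1 are the brightest in treated TOM-1, and SLC7A2, SLC7A3 and SLC36A4 are near or at 0 in 1 line each.

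The lines differed in their transporters before treatment. In control culture 18 of 35 (51.4%) passed between TOM-1 and RS4;11, 12 higher and 6 lower in TOM-1, where 34.7% of all genes did, 16.2% higher and 18.4% lower. Without TOM-1 control replicate 3 it was 24 (68.6%, against 52.8%), 17 higher and 7 lower (all genes 25.4% and 27.5%). Libraries of the lines did not overlap for 20 members in control (57.1%, against 42.7% of all genes). Under ADI-PEG20 25 passed (71.4%, against 47.2%), 17 higher and 8 lower (all genes 23.1% and 24.0%). Without that library it was 26, 17 higher and 9 lower (all genes 62.9%, 31.4% and 31.5%), and 28 did not overlap (80.0%, against 70.6%). These counts include SLC7A2, SLC7A3 and SLC36A4, which were in the tested set through 1 line only. Under ADI-PEG20, and in control without TOM-1 control replicate 3, they also include SLC1A3, tested through TOM-1. No support is drawn from the calls of these genes. The comparisons between the lines use the same libraries as the treatment comparisons and are set beside them as values only. In control TOM-1 had more SLC6A6 (log2 difference 4.12, SE 0.45, adjusted p = 1.71e-05), SLC6A9 (3.04, SE 0.16, adjusted p = 5.21e-08), SLC43A2 (2.08, SE 0.18, adjusted p = 2.59e-06), SLC38A5 (1.26, SE 0.18, adjusted p = 1.67e-04), SLC25A29 (1.16, SE 0.10, adjusted p = 3.55e-06) and SLC3A2 (0.95, SE 0.21, adjusted p = 0.00373).

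SLC7A5, SLC43A1 and SLC15A4 were also above their RS4;11 control levels (log2 differences 0.62, 0.61 and 0.66), and SLC7A7 was lower (log2 difference -0.93). Without TOM-1 control replicate 3, SLC3A2 was higher by 0.57 in place of 0.95. The TOM-1 control means without that library were 59.0 CPM for SLC6A6 (44.9 with it) and 182 CPM for SLC38A5 (220 with it). For SLC43A2, SLC6A9 and SLC25A29 they were 29.35, 27.2 and 127 CPM (34.1, 27.7 and 130 with it). Some carriers passed between the control groups only without that library. They were SLC7A1 (0.58, SE 0.07, adjusted p = 3.60e-07), SLC38A1 (0.98, SE 0.08, adjusted p = 3.98e-10) and SLC38A2 (0.93, SE 0.07, adjusted p = 1.70e-10), SLC1A3 and SLC25A12 (3.54 and 0.37), all higher in TOM-1, and SLC1A5 and SLC25A22 (-0.27 and -0.40), lower in TOM-1. SLC1A3 was in the tested set through TOM-1, so nothing further is read from its call. Lower calls for SLC36A1 (log2 difference -0.79) and SLC38A6 (-1.02) and a higher one for SLC38A10 (0.41) were each lost when single libraries were left out, with adjusted p up to 0.0772, 0.0825 and 0.114. For SLC36A1 those were TOM-1 control replicate 2 and RS4;11 control replicates 1 and 3, for SLC38A6 all 6 control libraries and RS4;11 ADI-PEG20 replicate 1, and for SLC38A10 RS4;11 control replicates 1 and 2 and RS4;11 ADI-PEG20 replicate 2. Under ADI-PEG20 the log2 difference was 3.77 for SLC43A2, 4.25 for SLC6A9, 2.11 for SLC3A2 and 1.84 for SLC38A2. SLC38A5, higher in TOM-1 in control, was no longer so under ADI-PEG20 (log2 difference -0.44, adjusted p = 0.0604, and -0.45, adjusted p = 3.12e-05, without TOM-1 control replicate 3). In treated cells SLC25A15 and SLC25A22 were lower in TOM-1 than in RS4;11 (log2 differences -0.67 and -1.19), as was SLC7A6 (-1.41). SLC7A1 was higher in treated TOM-1 by 0.97 (SE 0.28, adjusted p = 0.0142), a call that was lost without TOM-1 ADI-PEG20 replicate 1 or RS4;11 ADI-PEG20 replicate 2 or 3 (adjusted p up to 0.0732).

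Other carriers and the pathway around the transporters were read from lists chosen for that purpose. Of 36 further amino acid carriers, most of them tissue-restricted, 8 were expressed enough to be tested, and 3 were called in TOM-1 with and without control replicate 3, where 31.9% and 41.6% of all tested genes were. SLC7A11, the light chain of the cystine-glutamate exchanger and a partner of SLC3A2, rose from 34.5 ± 20.3 CPM to 137 ± 1.83 CPM (log2 fold change 1.98, SE 0.39, adjusted p = 0.00239, and 1.57 without replicate 3). In RS4;11 it stood at 14.5 ± 1.73 and 22.9 ± 2.57 CPM, with a log2 fold change of 0.66 whose adjusted p was 1.00 with 12 libraries and 0.00959 without TOM-1 control replicate 3. The mitochondrial serine carrier SFXN1 fell from 184 ± 28.6 to 126 ± 5.16 CPM in TOM-1 (-0.54, SE 0.14, adjusted p = 0.0114, and -0.67 without replicate 3). The third, SLC7A9, stayed under 1.1 CPM and is named only because the count is small.

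Of 38 genes of the amino acid response, 36 were tested and 29 were called in TOM-1, 27 higher and 2 lower, where 31.9% of all tested genes were called, 15.9% in each direction, with a median log2 fold change of 1.28 against 0.05 over all genes. Without control replicate 3 it was 34, 30 higher and 4 lower, against 41.6% of all genes. In RS4;11 0 were called with edgeR on 12 libraries (3 at an unadjusted p under 0.05) and 2 without TOM-1 control replicate 3. TRIB3, a pseudokinase that ATF4 and DDIT3 switch on, averaged 60.4 ± 22.0 CPM in TOM-1 control and 886 ± 46.2 CPM under ADI-PEG20 (3.88, SE 0.24, adjusted p = 1.66e-06, and 4.21 without replicate 3), and 18.2 ± 1.37 and 22.1 ± 4.30 CPM in RS4;11. DDIT3 (CHOP) went from 21.9 ± 10.8 to 102 ± 3.64 CPM (2.22, SE 0.28, adjusted p = 1.68e-04, and 2.68 without replicate 3), with 31.6% of its exonic bases under a gene on the other strand. ATF3, PPP1R15A and STC2 rose by 3.00, 2.97 and 2.38 on the log2 scale, or 3.08, 3.30 and 2.29 without replicate 3. ASNS, asparagine synthetase, went from 0.808 ± 0.800 to 5.13 ± 0.480 CPM (2.63, SE 0.91, adjusted p = 0.0448, and 2.09 without replicate 3). A gene on the same strand shares 44.6% of its exonic bases, and how reads in them were assigned is not given, so its low level is uncertain. ATF4 itself fell, from 657 ± 235 to 437 ± 1.90 CPM (-0.59, SE 0.19, adjusted p = 0.0327, and -0.26 without replicate 3), as did ALDH18A1, which starts proline and ornithine synthesis (log2 fold change -1.03, and -1.09 without replicate 3).

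Of 15 enzymes of arginine use and synthesis, 11 were tested and 4 called in TOM-1, 1 higher and 3 lower, where 31.9% of all tested genes were called. Without control replicate 3, 4 of 12 were called, against 41.6%. The higher one was ASS1, which passed the filter on low counts through RS4;11. It was at 0 counts throughout TOM-1 control and reached at most 14 in a treated TOM-1 library, so nothing is read from its call in TOM-1. It averaged 162 ± 20.1 CPM in RS4;11 control and 241 ± 29.7 CPM in treated RS4;11. Its RS4;11 log2 fold change of 0.57 had an adjusted p of 1.00 with 12 libraries and 0.0422 without TOM-1 control replicate 3. Of the markers of other blood cells, the 3 tested myeloid genes included 1 called in TOM-1, CSF1R, which fell from 4.21 ± 0.137 to 0.450 ± 0.106 CPM, and 4 of the 10 B-lineage markers were called, 2 in each direction, against 31.9% of all tested genes (6, 3 in each direction, against 41.6%, without control replicate 3). Their part in the transporter results was not tested.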

How the data were processed

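A single table, deposited by the authors, gave unnormalized read counts (whole numbers) for each Ensembl identifier, from poly(A)-captured RNA. The submitters' processing notes name STAR, SAMtools, featureCounts and hg38, without versions; the annotation release and the use of strand are not given in the sources used here. Of 60664 identifiers, 60463 had a symbol and 58396 were in GENCODE 29 (GRCh38), used for positions, exonic lengths and overlaps. The tests used edgeR 4.0.16 in R 4.3.3 (filterByExpr, TMM, glmQLFit and glmQLFTest, 1 group-means model of 12 libraries, two-sided), with Benjamini-Hochberg adjustment over all tested genes and a threshold of 0.05. The script was tested on simulated data. SE is the log2 fold change divided by the square root of F. A count of 0 was taken to allow up to 3 counts, and floors and intervals cover counting error only. Alternatives were other scalings and filters, DESeq2 1.42.0, limma 3.58.1 voom with quality weights, a replicate block, fits of the groups compared alone, and each library left out; the block without TOM-1 control replicate 3 was added after seeing the data. Groups and replicate numbers came from the titles. Statistics were given for transporters that passed with 12 libraries or without TOM-1 control replicate 3, though not for every call between the lines. Library values were given for those called in both fits and for SLC7A1, SLC7A2 and SLC7A3. Of the other lists, at most 4 called genes per direction in TOM-1 with a mean of at least 5 CPM were named, beside ATF4, DDIT3, TRIB3, ASNS and ASS1. SLC7A9 and CSF1R were named after their values were seen. The transporters and the lists were chosen with earlier results of these data known. A further marker list is not reported here.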

Additional observations from a re-analysis of the deposited data

Results flagged for a closer look

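Transporters whose response to ADI-PEG20 differed between the lines by the test of the difference itself (edgeR's quasi-likelihood test, 12 libraries, adjusted p under 0.05) are given here as the effect in TOM-1 minus the effect in RS4;11, on the log2 scale. The difference was 1.69 for SLC43A2, 1.21 for SLC6A9, 1.20 for SLC38A2, 1.16 for SLC3A2, 0.71 for SLC43A1 and 0.69 for SLC7A5, each higher in all 3 treated TOM-1 libraries than in all 3 controls. It was -2.45 for SLC16A10, -1.70 for SLC38A5 and -1.19 for SLC25A22, each lower in all 3 treated TOM-1 libraries. With 3 libraries in each group, no group was tested for outlying samples.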

How the results depend on the processing

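In TOM-1, 15 transporters were called; 24 were called by limma voom with sample quality weights, 8 when the TOM-1 libraries were fitted alone, and 10 to 20 when 1 library was left out, with 20 only without TOM-1 control replicate 3. For the difference between the lines, 9 became 18 with voom weights, 18 with the replicate block and TOM-1 control replicate 3 left out, and 5 to 18 with 1 library left out (at most 10 in those that kept TOM-1 control replicate 3). It was 5 without any 1 of the treated TOM-1 libraries, RS4;11 control replicate 1 or 2, or RS4;11 ADI-PEG20 replicate 1 or 3. The other ranges were 15 to 24 for the lines in control, 22 to 26 for the lines under ADI-PEG20, and 0 to 0 for RS4;11 under treatment. No call of the treatment comparisons or of their difference changed direction in any alternative. Between the lines in control, SLC7A1 (0.24) was -0.07 without TOM-1 control replicate 1 and up to 0.58 without replicate 3. SLC25A22 (0.00) was -0.40 without TOM-1 control replicate 3, -0.07 to 0.14 with any other library left out (0.14 without TOM-1 control replicate 2), -0.34 with voom weights, -0.05 with the replicate block and -0.31 with the block and TOM-1 control replicate 3 left out. With the replicate block the counts were 14 in TOM-1, 0 in RS4;11, 10 for the difference, 17 for the lines in control and 25 under ADI-PEG20. Same-numbered control and treated libraries deviated together with correlations of -0.057 to -0.014 in TOM-1 and 0.053 to 0.213 in RS4;11. For different numbers the values were -0.051 to 0.067 in TOM-1 and -0.136 to 0.077 in RS4;11. In RS4;11 the same-numbered values thus tended to be higher, and whether the numbers pair libraries was not settled. The main fit did not pair them. With 12 libraries the spread of TOM-1 control replicate 3 enters every test, RS4;11 included. Transporters under about 10 CPM, such as SLC38A6 and SLC7A8, rest on few reads.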
